A study of Mus musculus with 38 samples.

Results

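The genes described here are the 8 core genes of MHC class II antigen presentation in the mouse: H2-Aa, H2-Ab1, H2-Eb1, H2-DMa, H2-DMb1, Cd74, Ciita and Ctss. They were chosen by symbol among the 55487 genes of the count table, and all 8 had a row and passed the filter on low counts in each of 3 experiments on the hormone FGF23, in which 15859, 16020 and 15090 genes could be tested. Bulk RNA sequencing had been done on 38 kidney samples in 10 groups. The 14 libraries of the anti-GBM experiment came from kidneys of male C57BL/6JRj mice, aged 8 weeks at induction and 10 weeks at the end, which were either healthy or had anti-GBM disease, a glomerulonephritis set off by nephrotoxic serum after immunisation with sheep IgG in Freund's adjuvant. Healthy mice of this experiment received PBS, and whether they also received the adjuvant is not stated in the sources used here. Recombinant FGF23, at 1 µg per injection, or vehicle was injected intravenously on 6 days, giving 4 healthy mice with vehicle, 3 healthy mice with FGF23, 4 anti-GBM mice with vehicle and 3 anti-GBM mice with FGF23. The 16 libraries of the Adriamycin experiment were made from female BALB/c kidneys, from mice of the same ages, healthy or with nephropathy caused by Adriamycin (doxorubicin), a drug toxic to podocytes, each given vehicle or 1 µg FGF23 1 time, 24 h before the end, with 4 mice in each of 4 groups. The remaining 8 libraries were precision-cut kidney slices (PCKS), thin living sections kept in culture, 4 with vehicle and 4 with FGF23. They came from male DBA/2J mice with adenine nephropathy, aged 8 weeks at induction and 23 weeks at the end. The labels give 1 h of exposure for the slices whereas the study's text gives 24 h, there were no slices of disease-free kidneys, and the labels do not say whether slices came from separate mice, although the study describes its slice replicates as biologically independent. Mice and slices are named below by their library number, such as NTS8 or Ad5.

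MHC class II molecules are pairs of an α and a β chain that carry peptides from internalised proteins to the cell surface, where CD4+ T cells read them. In the endoplasmic reticulum the pair is held by the invariant chain, Cd74, which cathepsin S (Ctss) trims in endosomes, and H2-DM, the pair of H2-DMa and H2-DMb1, then exchanges the remaining fragment for a peptide. Ciita is the transactivator that switches on these genes, without binding DNA itself, through proteins assembled on the X and Y boxes of their promoters, and interferon-γ induces it, with IRF1 among the factors involved. In the kidney class II is carried mainly by macrophages and dendritic cells, and tubular epithelium can acquire it in inflammation. In whole-tissue RNA, more class II cells and more class II RNA per cell cannot be told apart.

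On the reference genome GRCm38, the H2 members lie together on chromosome 17. H2-DMa (chr17:34119541-34139101, plus strand), H2-DMb1 (chr17:34153072-34160230, plus), H2-Ab1 (chr17:34257689-34269419, plus), H2-Aa (chr17:34282744-34287823, minus) and H2-Eb1 (chr17:34305867-34316674, plus) span 197.1 kb. Ciita lies on chromosome 16 (chr16:10480059-10528418, plus) and Ctss on chromosome 3 (chr3:95526786-95556403, plus). All 8 are annotated as protein coding, and the counts are of reads on their exons. H2-DMa shares 360 exonic bases with Brd2 and Ciita shares 329 with Dexi, both on the opposite strand, and since the strand setting of the counting is not given in the sources used here, reads there cannot be assigned with certainty. H2-DMb1 has a near-identical neighbour, H2-DMb2, and how reads matching both were counted is not stated, so the division between these 2 genes is uncertain.

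RefSeq's promoters on GRCm38.p6, each of 250 bases before and 50 bases after a start, were on hand for 5 of the 8 members, not including H2-Ab1, Cd74 and Ciita. They were searched on both strands for AACTGATG, the form of the X box core in the H2-Eb1 promoter, for TGATTGG, the Y box (a CCAAT box read on the other strand), and for AAANNGAAA, a motif of interferon-responsive genes. The stretches below are shown because they hold the boxes through which Ciita acts, or, for Ctss, the interferon motif, and the matched letters are in capitals.
H2-Eb1 (chr17:34305766-34305825, plus strand): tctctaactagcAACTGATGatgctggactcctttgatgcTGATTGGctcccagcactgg
H2-Aa (chr17:34287854-34287913, minus strand): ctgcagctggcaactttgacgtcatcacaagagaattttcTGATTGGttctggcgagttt
Ctss (chr3:95526736-95526785, plus strand): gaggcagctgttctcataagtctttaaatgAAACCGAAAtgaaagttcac
The form of the X box core searched for was that of H2-Eb1, so its match in this gene was fixed in advance. H2-Eb1 held the X box core 89 bases and the Y box 61 bases before its start, 28 bases apart. H2-DMb1 held them at 92 and 63 bases, 29 apart. H2-Aa matched only the letters of the Y box, 50 bases before its start, and H2-DMa, with 2 annotated promoters, matched neither. Only these exact letters were searched for, so a missing match does not show that a promoter lacks an X or Y box. Ctss held the interferon-type motif 20 bases before its start and again on the other strand after its start, but matched neither box. Of the H2-DMa promoters, 1 held that motif on the other strand, 25 bases before its start. Among all 32851 promoters of this length, the X box core was in 255 (0.776%), the Y box in 2568 (7.82%), both together in 28 (0.0852%) and the interferon-type motif in 3466 (10.6%). A match describes letters in these windows, not binding.

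Levels are given as CPM, which are read counts relative to the library total, corrected for library composition by TMM. Library totals ran from 13704248 to 23630210 counts in the anti-GBM experiment, from 15665050 to 27583911 in the Adriamycin experiment and from 11186925 to 16254987 in the slices, and the 8 members together took 0.0488 to 0.306%, 0.0373 to 0.0894% and 0.122 to 0.153% of them. BALB/c and DBA/2J mice differ from C57BL/6 mice in class II haplotype, so their reads may align to the C57BL/6 reference differently. Tests were made only within an experiment. The polymorphic pseudogene H2-Ea-ps, the α chain partner of H2-Eb1, showed the haplotype. It had 0 counts in all 14 C57BL/6 libraries, which in the smallest allows up to 0.219 CPM by counting error alone, whereas it had 709 to 2085 counts in the BALB/c libraries and 837 to 1231 in the slices. Proximal tubule markers, summed over 4 genes, were at 232.9 to 574.3 CPM in the slices and at 5334 to 12360 CPM in the mouse kidneys, each experiment being scaled on its own, while podocyte and endothelial markers were present in all groups. The slices were thus low in transcripts of the proximal tubule, the labelled tissue being kidney in all.

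Per kilobase of exon, where genes can be roughly compared with each other, Cd74 was the most abundant member and Ciita the least in all 10 groups. The lengths were unions of all annotated exons, which can exceed the length of a transcript. The order of members with close levels therefore depends on the annotation. In healthy vehicle-treated C57BL/6 kidneys the mean level was 156.5 ± 13.6 CPM per kb (SD, n = 4) for Cd74, 44.7 ± 2.18 for H2-Eb1, 37.8 ± 4.25 for H2-Ab1 and 24.9 ± 1.57 for H2-Aa. It was 12.6 ± 2.10 for Ctss, 7.72 ± 1.19 for H2-DMb1, 2.10 ± 0.236 for H2-DMa and 0.938 ± 0.123 for Ciita. The gene of the invariant chain lies apart from the others, at chr18:60803848-60812652 on the plus strand. Its transcript thus stood above the chains it escorts and the transactivator about at the level of 1 CPM per kb. H2-Eb1 and H2-Ab1 were neighbours in this order whose ranges overlapped in every group, and H2-DMa and H2-DMb1 overlapped in the 4 BALB/c groups. Ctss was at position 5 in the 8 groups of mouse kidneys and at position 2 in both slice groups, where its mean was 133.9 ± 10.9 CPM per kb with vehicle (n = 4) against 71.5 ± 7.19 for H2-Ab1.

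The first question was how anti-GBM disease changed these genes. In vehicle-treated mice 7 of the 8 members rose with disease, the class II chains, the invariant chain, H2-DM and cathepsin S alike, with log2 fold changes from 1.21 to 2.01, and Ciita did not pass the test. The median over the 8 members was 1.56, against -0.01 over all genes tested. Of all genes, 39.8% were called in this comparison at an adjusted p below 0.05 and 19.4% were called higher. All 4 anti-GBM mice lay above all 4 healthy mice for the same 7 members, and the groups were apart, in either direction, in 35.2% of all genes.

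**Figure D1:**
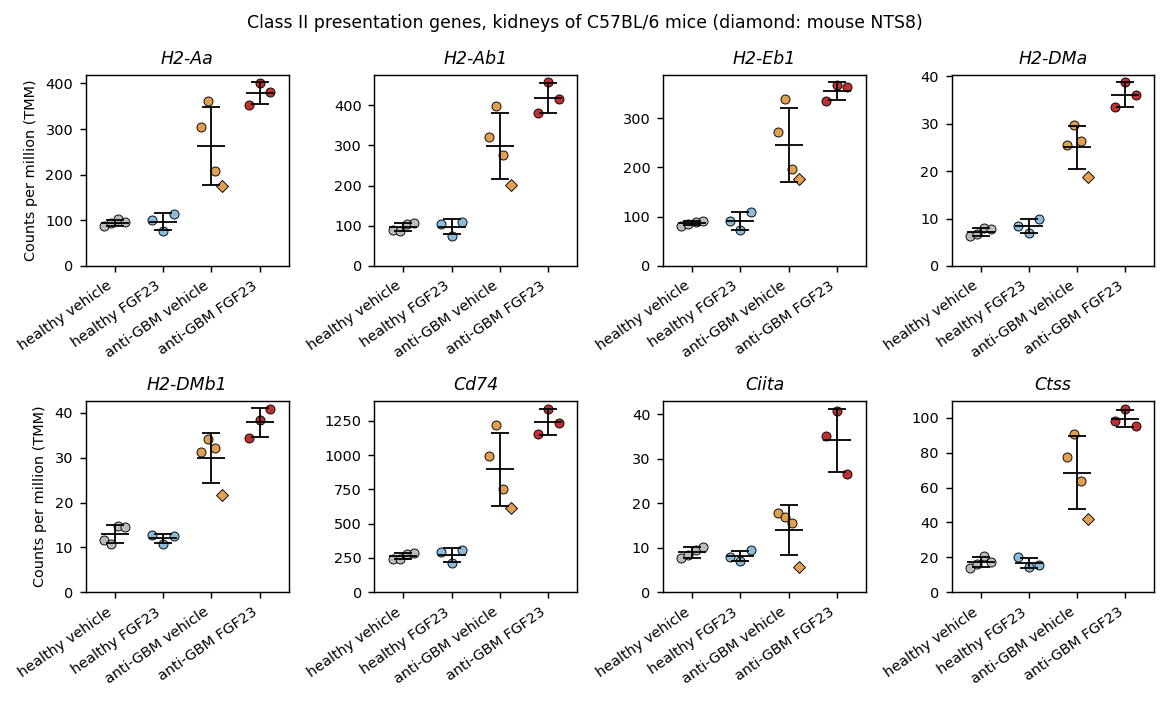
Levels of the 8 genes in the anti-GBM experiment, in CPM scaled by TMM, with each point a mouse and bars showing the mean and SD of the group. Both anti-GBM groups lie above both healthy groups for every gene but Ciita, whose lowest anti-GBM mouse, NTS8 (diamond), is at 5.62 CPM, below all 7 healthy mice.

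Cd74, the invariant chain, was at 241.1, 245.3, 280.6 and 284.2 CPM in the healthy vehicle-treated mice. It was at 989.6, 1222, 752.1 and 616.4 CPM in the anti-GBM mice NTS5 to NTS8. Every diseased mouse was thus above the highest healthy mouse by a wide margin, and the log2 fold change was 1.77 ± 0.18 (SE; edgeR adjusted p = 1.27e-05). For the α chain H2-Aa and the β chains H2-Ab1 and H2-Eb1, the 4 diseased mice stood in the same order as for Cd74. H2-Ab1, for example, was at 88.7, 86.8, 104.9 and 108 CPM in healthy mice and at 320.3, 399.1, 275.3 and 202.1 CPM in diseased mice. NTS6 was the highest and NTS8 the lowest of the diseased mice for H2-Ab1, H2-Aa and H2-Eb1, and no values of the groups overlapped. Their log2 fold changes were 1.47 ± 0.19 for H2-Aa (adjusted p = 6.89e-05), 1.62 ± 0.18 for H2-Ab1 (adjusted p = 2.17e-05) and 1.5 ± 0.18 for H2-Eb1 (adjusted p = 3.5e-05), all from edgeR.

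The peptide exchange factor H2-DM rose by both of its chains. H2-DMa was at 6.40, 6.7, 8.09 and 7.75 CPM in healthy mice and at 25.5, 29.7, 26.3 and 18.8 CPM in diseased mice, a log2 fold change of 1.79 ± 0.15 (edgeR adjusted p = 2.26e-06). H2-DMb1 went from 10.8 to 14.8 CPM in the healthy range to 21.7 to 34.2 CPM in the diseased range, a log2 fold change of 1.21 ± 0.14 (edgeR adjusted p = 3.21e-05). The groups did not overlap for either chain. Ctss, the protease that trims the invariant chain, had the largest log2 fold change of the 8 members in this comparison, 2.01 ± 0.20 (edgeR adjusted p = 8.46e-06). It was at 13.98, 15.97, 20.7 and 17.6 CPM in healthy mice and at 77.3, 90.9, 64.0 and 42.1 CPM in diseased mice.

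Ciita, the transactivator, differed from the other members in the separation of its values. It was at 7.58, 8.41, 9.59 and 10.2 CPM in healthy mice and at 17.8, 16.9, 15.6 and 5.62 CPM in diseased mice. NTS5, NTS6 and NTS7 were above every healthy mouse and NTS8 was below every one. The log2 fold change was 0.65 ± 0.27 (edgeR adjusted p = 0.065). Without NTS8 it was 0.95 ± 0.15 (edgeR adjusted p = 0.000487), and with NTS8 kept it was also called by DESeq2 (adjusted p = 0.0424) and by edgeR with another filter on low counts. NTS8 was the lowest of the diseased vehicle-treated mice for all 8 members.

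In FGF23-treated mice, anti-GBM disease raised all 8 members, Ciita included. The log2 fold changes against healthy FGF23-treated mice ran from 1.66 to 2.57 with a median of 2.09, against -0.02 over all genes, of which 27.2% were called and 14.5% were called higher. For all 8 members the 3 diseased mice lay above the 3 healthy mice, where 45.4% of all genes were apart in either direction. This comparison and the one in vehicle-treated mice use different mice throughout. Ciita was at 8.03, 7.02 and 9.41 CPM in healthy FGF23-treated mice and at 35.2, 40.6 and 26.5 CPM in diseased FGF23-treated mice, a log2 fold change of 2.07 ± 0.31 (edgeR adjusted p = 0.000308). Ctss was at 19.95, 14.6 and 15.8 CPM against 98.1, 105.1 and 95.5 CPM, a log2 fold change of 2.57 ± 0.23 (edgeR adjusted p = 7.06e-06). Cd74 was at 292.5, 214.4 and 309.2 CPM against 1155, 1339 and 1231 CPM. Within the healthy group NTS10 was the lowest for all 8 members, and even the highest healthy mouse was far below the lowest diseased mouse. The log2 fold change of Cd74 was 2.19 ± 0.21, that of H2-DMa 2.10 ± 0.17 and that of H2-DMb1 1.66 ± 0.16. Those of the class II chains were 1.96 ± 0.22 for H2-Aa, 2.10 ± 0.21 for H2-Ab1 and 1.96 ± 0.21 for H2-Eb1.

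**Figure D2:**
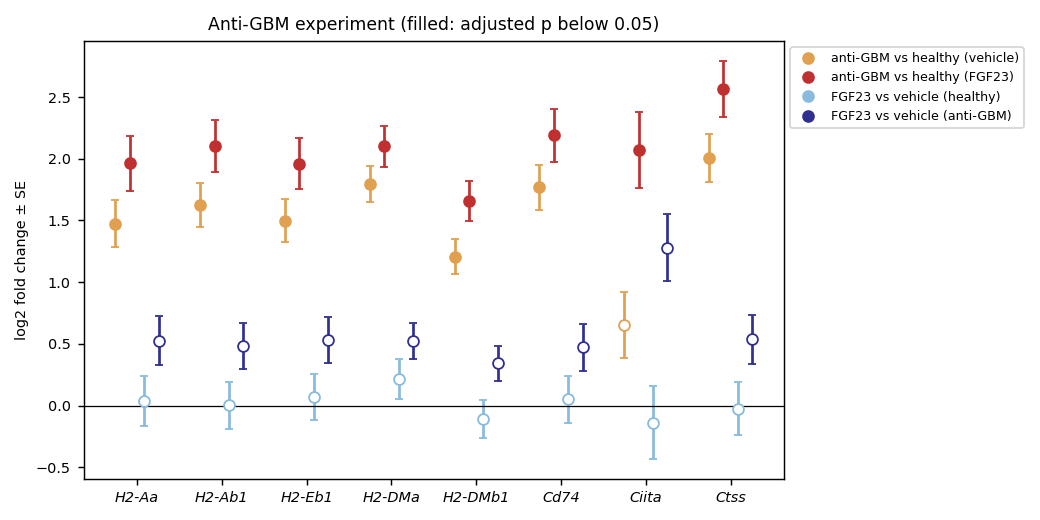
Log2 fold change with its SE for each of the 8 genes in 4 comparisons of the anti-GBM experiment, from edgeR, with filled points for an adjusted p below 0.05. Disease gave filled points for 7 genes with vehicle and 8 with FGF23, and FGF23 gave open points near 0 in healthy mice and above 0 in anti-GBM mice.

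The next question was whether FGF23 itself changed these genes. In healthy C57BL/6 mice it did not move any member past the test: log2 fold changes were from -0.14 for Ciita to 0.22 for H2-DMa, with SEs of 0.15 to 0.29. edgeR called 0 of the 8 members and 0% of all genes, 0 members had an unadjusted p below 0.05 (4.34% of all genes), and DESeq2 called 0 members and 0% of all genes. H2-Ab1, at 105.5, 75.7 and 110.4 CPM with FGF23, covered the range of the vehicle-treated mice, and all 8 members overlapped between the groups.

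In anti-GBM mice all 8 members had higher means with FGF23 than with vehicle, but none passed the edgeR test after adjustment. The log2 fold changes were 0.34 to 0.54 for 7 members and 1.28 for Ciita, with a median of 0.53 against a median over all genes that was 0.00 to 2 decimals. edgeR called 0 of the 8 members, with 0.240% of all genes called. All 8 had an unadjusted p below 0.05, which 12.6% of all genes had, and DESeq2 called 1 member, Ciita (adjusted p = 0.00205), with 0.939% of all genes called. The smallest edgeR adjusted p among the members was that of Ciita, 0.0932 at a log2 fold change of 1.28 ± 0.27. For 4 members (Ciita, H2-DMa, H2-DMb1 and Ctss) all 3 FGF23-treated mice lay above all 4 vehicle-treated mice, where 9.22% of all genes were apart in either direction.

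Ciita was at 17.8, 16.9, 15.6 and 5.62 CPM in anti-GBM mice with vehicle and at 35.2, 40.6 and 26.5 CPM with FGF23, so the lowest FGF23-treated mouse exceeded the highest vehicle-treated mouse. Without NTS8 the log2 fold change was 1.03 ± 0.16 (edgeR adjusted p = 0.0202), which passes the test, and the other 3 vehicle-treated mice were at 15.6 to 17.8 CPM. Over the 7 fits that each left out 1 of these mice, the log2 fold change ran from 1.03 to 1.43. The edgeR adjusted p ran from 0.0202 to 0.364, and Ciita passed only without NTS8. H2-DMa was at 33.5, 38.7 and 36.04 CPM with FGF23, above the 18.8 to 29.7 CPM with vehicle, a log2 fold change of 0.52 ± 0.14 (edgeR adjusted p = 0.228). Its partner H2-DMb1 was at 34.5, 38.4 and 40.9 CPM with FGF23, just above the highest vehicle-treated mouse at 34.2 CPM. Ctss, at 95.5 to 105.1 CPM with FGF23, was likewise above its vehicle range, which ended at 90.9 CPM. The other 4 members overlapped in NTS6 alone. Cd74 in NTS6, at 1222 CPM, exceeded 1 of the 3 FGF23-treated mice. H2-Aa in NTS6, at 362.4 CPM, H2-Ab1, at 399.1, and H2-Eb1, at 338.2, each exceeded NTS13 with FGF23. Spread also differed between these groups: the SD of Cd74 was 266.9 CPM with vehicle (n = 4) and 92.3 CPM with FGF23 (n = 3).

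Whether the effect of FGF23 differed between diseased and healthy mice was tested as an interaction. All 8 estimates were positive, from 0.31 to 1.42 on the log2 scale, and edgeR called 0 members, with 0.0315% of all genes called. Only Ciita, at 1.42 ± 0.40 (edgeR adjusted p = 0.376), had an unadjusted p below 0.05, as 8.30% of all genes had, and DESeq2 called 0 members and 0.270% of all genes. The comparisons of FGF23 with vehicle in anti-GBM mice, of anti-GBM with healthy mice and the interaction share mice with each other, so their values are not independent.

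The genes that act before Ciita were read in the same libraries. Ifng, encoding interferon-γ, had at most 2 counts in any library of any experiment and was not tested. Irf1, an interferon-induced factor that acts on the Ciita gene, was at 21.9, 24.2, 28.6 and 28.7 CPM with vehicle and at 66.1, 69.1 and 48.1 CPM with FGF23 in anti-GBM mice. Its log2 fold change with FGF23 was 1.24 ± 0.15 (edgeR adjusted p = 0.00207), and its interaction of 1.33 ± 0.21 missed the threshold (edgeR adjusted p = 0.0533). NTS8 was the highest of its group for Irf1 and the lowest for Ciita. Of the 6 genes of this route described here, 5 were tested. Disease raised 2 of them with vehicle, the interferon-γ receptor chains Ifngr1 (log2 fold change 0.99 ± 0.08) and Ifngr2 (0.65 ± 0.11). It raised 3 with FGF23, these 2 and Irf1. Of all genes, 19.4% were called higher with vehicle and 14.5% with FGF23.

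Of 23 other genes of class II presentation, 21 were tested in this experiment. With vehicle, disease raised 10 and lowered 1, Creb1 (log2 fold change -0.39 ± 0.08), a factor that binds the promoter next to the X box. Of all 15859 genes tested, 3076 (19.4%) were called higher there and 3228 lower. With FGF23, disease raised 10 and lowered 0, where 2299 (14.5%) of all genes were called higher and 2011 lower. FGF23 raised 1 in anti-GBM mice, where 0.240% of all genes were called. This was Nfya (0.64 ± 0.12, edgeR adjusted p = 0.0449), a subunit of the factor on the Y box. H2-DMb2, the second β chain of H2-DM, had the smallest p of these genes in both disease comparisons. It was at 1.14 to 1.66 CPM in healthy vehicle-treated mice and at 8.49, 11.7, 11.3 and 6.26 CPM in diseased ones, a log2 fold change of 2.73 ± 0.28 (edgeR adjusted p = 1.1e-05), and with FGF23 the log2 fold change was 2.90 ± 0.31. Both H2-DM β genes thus rose with disease. In FGF23-treated anti-GBM mice both were above all values of vehicle-treated anti-GBM mice, though edgeR called neither. If reads matching both genes were divided between them, their sum rose with disease. If such reads were dropped, the sum was not observed. Ifi30, a thiol reductase of the endosome, rose by a log2 fold change of 0.61 ± 0.09 with vehicle (edgeR adjusted p = 0.000175), and Ctsz, an endosomal protease, by 0.53 ± 0.08 (edgeR adjusted p = 0.000226). With FGF23, Cd40 (1.45 ± 0.24) and Cd86 (1.37 ± 0.24), costimulatory proteins of antigen-presenting cells, followed H2-DMb2. The H2-DM antagonist genes H2-Oa and H2-Ob, the β chain gene H2-Eb2 and the X box factor Rfx5 passed no test. H2-Oa was at 0.216 to 1.23 CPM and H2-Ob at 0.648 to 2.97 CPM in anti-GBM mice with vehicle, both spanning their healthy values. Rfx5 had a log2 fold change of 0.05 ± 0.14 with disease.

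Markers of some leukocytes rose with disease as the members did. Ptprc, the pan-leukocyte gene for CD45, was at 10.9 to 16.1 CPM in healthy vehicle-treated mice, at 30.8, 28.4, 22.6 and 12.9 CPM in anti-GBM mice NTS5 to NTS8, and at 35.4, 38.9 and 33.8 CPM in anti-GBM mice with FGF23. NTS8 was the lowest of its group here as well, within the healthy range. Ptprc rose with disease by a log2 fold change of 0.73 ± 0.22 with vehicle (edgeR adjusted p = 0.0167) and 1.38 ± 0.25 with FGF23 (edgeR adjusted p = 0.00133). FGF23 against vehicle in anti-GBM mice gave 0.60 ± 0.23 (edgeR adjusted p = 0.344) with no overlap of the groups. Of 8 macrophage markers 7 rose with disease under vehicle and 7 under FGF23, and Csf1r passed in neither. Their summed level was 128.6 to 139.1 CPM in healthy mice with vehicle, 279.8 to 435.6 CPM in anti-GBM mice with vehicle and 382.9 to 408.8 CPM in anti-GBM mice with FGF23. All 8 were detected in every group, and edgeR called 0 of the 8 for FGF23 in anti-GBM mice (1 at an unadjusted p below 0.05), where their median log2 fold change was 0.17. Dendritic cell markers had a median of 0.68 there and T cell markers 0.52, beside 0.53 for the members. All 6 and all 5 estimates of these 2 lists were positive. Monocyte and neutrophil markers had a median of -0.32, but with 2 positive and 2 negative estimates, from -1.58 to 0.93. In these 3 marker lists edgeR called 0 each, with 0, 0 and 4 at an unadjusted p below 0.05. Of 6 dendritic cell markers 1 rose with disease under vehicle, a share near the 19.4% of all genes called higher, and 2 under FGF23, where 14.5% of all genes were, at summed levels of 17.03 to 21.9, 20.1 to 39.9 and 39.97 to 45.1 CPM in those 3 groups. Monocyte and neutrophil markers rose in 3 and 4 of 4 cases, T cell markers in 2 and 1 of 5, beside the same 19.4% and 14.5% of all genes. The T cell share with FGF23 was near that of all genes. B cell markers, from cells that also carry class II, summed to 3.18 to 3.78 CPM in healthy mice and 1.15 to 3.48 CPM in diseased mice with vehicle, and of 3 tested, 0 rose while 1 fell with vehicle and 2 fell with FGF23. Proximal tubule markers summed to 9376 to 12360 CPM in healthy and 6489 to 10580 CPM in diseased mice with vehicle, and 2 of 4 fell. Of all 15859 genes tested, disease lowered 3228 with vehicle and 2011 with FGF23. The NK cell markers were too low to be tested. The part of these cells in the results was not tested.

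In the Adriamycin experiment no member passed the edgeR test in any comparison. In vehicle-treated mice all 8 estimates for Adriamycin against healthy were positive, from 0.15 for Ctss to 0.91 for H2-DMa, with a median of 0.50 against 0.00 over all genes. edgeR called 0 of the 8 members and 0.331% of all genes. Unadjusted p was below 0.05 for 4 members (H2-Ab1, H2-DMa, H2-DMb1 and Ciita), as for 8.27% of all genes, and DESeq2 called 1 member, H2-DMa (log2 fold change 0.92, adjusted p = 0.0424), with 1.03% of all genes called. The groups did not overlap for H2-DMa and H2-DMb1, both higher with Adriamycin, where 5.68% of all genes were apart in either direction.

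**Figure D3:**
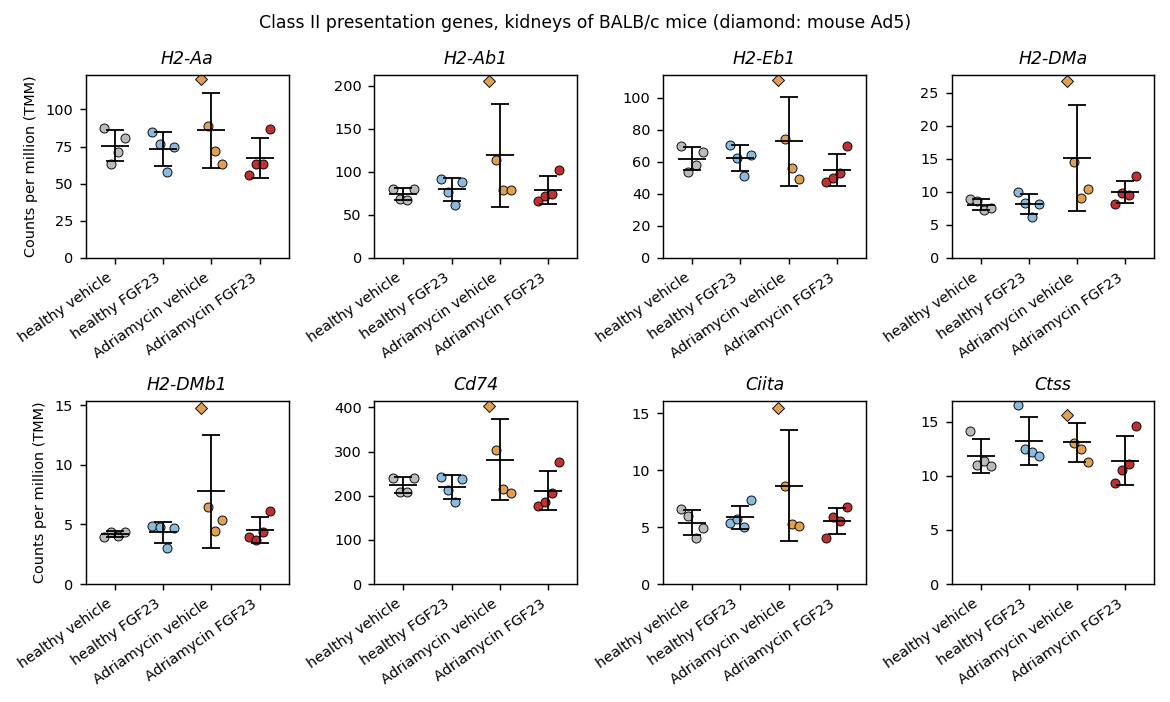
Levels of the 8 genes in the Adriamycin experiment, in CPM scaled by TMM, with each point a mouse and bars showing the mean and SD of 4 mice. In the Adriamycin group with vehicle, mouse Ad5 (diamond) is the highest for all 8 genes, for example at 26.8 CPM for H2-DMa against 9.08 to 14.5 CPM in the others.

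These differences leaned on 1 mouse. H2-DMa was at 8.9, 8.55, 7.30 and 7.54 CPM in healthy vehicle-treated mice and at 26.8, 14.5, 9.08 and 10.4 CPM in the Adriamycin mice Ad5 to Ad8. H2-DMb1 was at 3.92 to 4.4 CPM in the healthy mice and at 14.8, 6.47, 4.48 and 5.37 CPM in the diseased ones. Ad5 was the highest for all 8 members, Ad6 came next, and Ad7 and Ad8 were near the healthy range. Ciita was at 4.07 to 6.56 CPM in healthy mice and at 15.5, 8.63, 5.25 and 5.13 CPM in Adriamycin mice, and Cd74 was at 208.9 to 240.4 CPM and at 403.2, 303.3, 214.4 and 207 CPM. Without Ad5 the log2 fold change of H2-DMa went from 0.91 ± 0.26 (edgeR adjusted p = 0.227) to 0.49, that of H2-DMb1 from 0.90 ± 0.30 to 0.38, that of Ciita from 0.68 ± 0.29 to 0.23 and that of Cd74 from 0.33 ± 0.18 to 0.11. Those of H2-Aa and H2-Eb1 went to -0.02 and -0.05. H2-DMb2 was at 3.34 to 11.8 CPM in the Adriamycin mice and at 3.22 to 3.85 CPM in the healthy mice, and H2-Ea-ps at 42.3 to 97.6 and 44.4 to 55.0 CPM.

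Leukocyte markers overlapped between these groups. Ptprc was at 9.78 to 11.6 CPM in Adriamycin mice with vehicle and at 9.17 to 12.2 CPM in healthy mice with vehicle. The 8 macrophage markers summed to 119.5 to 190.9 CPM in the former and to 157.8 to 210.9 CPM in the latter. Their part in the values of Ad5 was not tested. edgeR called 0 of the 8 in any comparison of this experiment, with 0 to 3 at an unadjusted p below 0.05.

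With FGF23, the estimates for Adriamycin against healthy mice were of both signs, between -0.23 and 0.28. edgeR called 0 members and 0.699% of all genes, 0 members had an unadjusted p below 0.05 (12.7% of all genes), and DESeq2 called 0 members and 1.68% of all genes. H2-DMa was at 9.92, 8.24, 6.26 and 8.15 CPM in healthy mice with FGF23 and at 8.20, 9.85, 9.47 and 12.3 CPM in Adriamycin mice with FGF23, and the groups overlapped for every member. In healthy BALB/c mice FGF23 against vehicle gave log2 fold changes of -0.04 to 0.16. edgeR called 0 of the 8 members and 0% of all genes, 0 had an unadjusted p below 0.05 (6.69% of all genes), and DESeq2 called 0 members and 0.134% of all genes.

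In Adriamycin mice all 8 estimates for FGF23 against vehicle were negative, from -0.21 for Ctss to -0.78 for H2-DMb1, opposite in sign to those in anti-GBM mice, which differed in strain, sex and length of treatment as well. edgeR called 0 members and 0.0375% of all genes, 5 members had an unadjusted p below 0.05 (5.69% of all genes), and DESeq2 called 0 members and 0.208% of all genes. H2-DMb1 was at 14.8, 6.47, 4.48 and 5.37 CPM with vehicle and at 3.94, 3.74, 4.38 and 6.17 CPM with FGF23, and the groups overlapped for every member. Without Ad5 the estimates were between -0.11 and -0.26. The interaction of FGF23 with Adriamycin was negative for all 8, from -0.32 for H2-Aa to -0.84 for H2-DMb1, and edgeR called 0 members and 0% of all genes. Without Ad5 the interaction was -0.32 for H2-DMb1, -0.31 for Ciita and H2-Ab1, -0.20 for H2-DMa and -0.11 for H2-Aa. In the fit with all mice 0 members had an unadjusted p below 0.05 (5.11% of all genes), and DESeq2 called 0 members and 0.0127% of all genes. Of 20 other class II genes and 5 genes upstream of Ciita tested in this experiment, edgeR called 0 in every comparison, with 0 to 4 and 0 to 3 at an unadjusted p below 0.05.

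**Figure D4:**
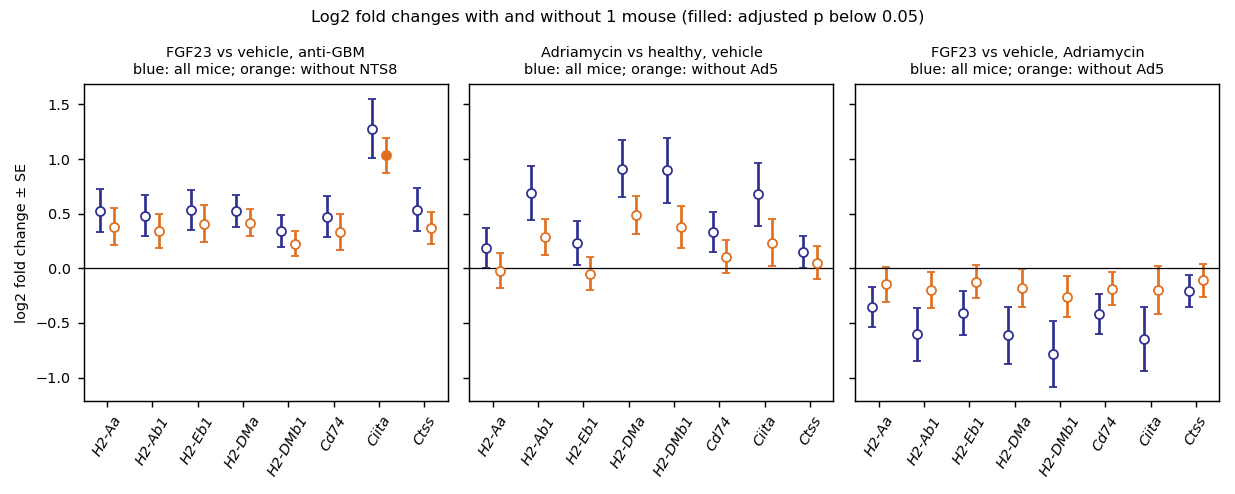
Log2 fold change with its SE for each of the 8 genes with all mice (blue) and without 1 mouse (orange), from edgeR, for FGF23 in anti-GBM mice, for Adriamycin in vehicle-treated mice and for FGF23 in Adriamycin mice, with filled points for an adjusted p below 0.05. Without NTS8 Ciita has a filled point at 1.03, and without Ad5 the Adriamycin estimates lie between -0.05 and 0.49.

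In the slices of adenine-fed DBA/2J mice, FGF23 against vehicle moved no member past the test. The log2 fold changes were from -0.23 for H2-DMb1 to 0.15 for H2-Aa, with SEs from 0.09 to 0.26. edgeR called 0 of the 8 members and 0% of all genes, 0 members had an unadjusted p below 0.05 (4.89% of all genes), and DESeq2 called 0 members and 0.00674% of all genes. Cd74 was at 690.1, 647.2, 670.6 and 747.4 CPM with vehicle and at 669, 738.5, 600.8 and 744.5 CPM with FGF23, a log2 fold change of 0.00 ± 0.10. Ctss was at 174.2, 197.7, 165.3 and 190.2 CPM with vehicle and at 108.3, 191.7, 120.4 and 200.7 CPM with FGF23. The FGF23 slices of Ctss fell into a pair near the vehicle values and a pair below them, and the log2 fold change was -0.23 ± 0.19 (edgeR adjusted p = 0.86). Ciita was at 5.45 to 6.17 CPM with vehicle and at 6.28, 6.12, 2.77 and 8.30 CPM with FGF23, the widest relative spread among the members in these slices. Slice 3 with FGF23 was the lowest of its group for 7 of the 8 members. Of 21 other class II genes and 5 upstream genes tested in the slices, edgeR called 0, with 1 and 0 at an unadjusted p below 0.05. Ptprc was at 43.4 to 54.4 CPM with vehicle and 29.7 to 54.8 CPM with FGF23. The dendritic cell marker Cd209a had 0 counts in all 4 vehicle slices and at most 3 counts in any FGF23 slice.

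**Figure D5:**
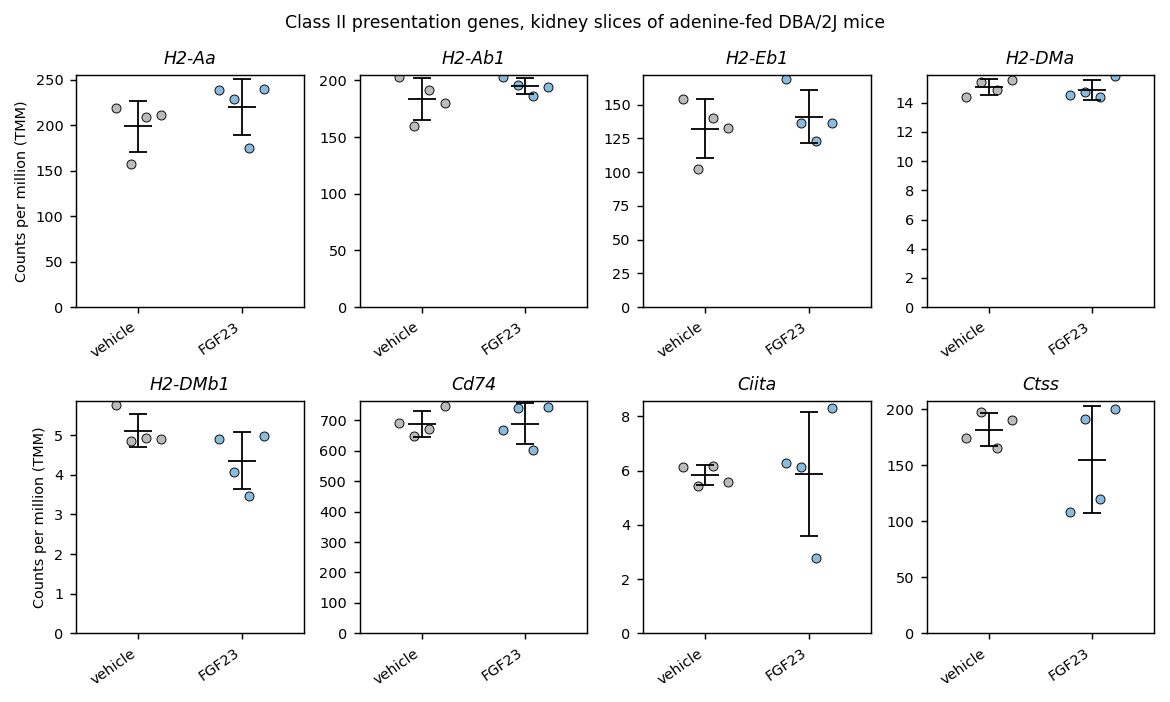
Levels of the 8 genes in kidney slices, in CPM scaled by TMM, with each point a slice culture and bars showing the mean and SD of 4 cultures. The vehicle and FGF23 groups overlap for every gene, with Cd74 at 600.8 to 747.4 CPM.

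Within an experiment the members varied together to different degrees. Over the 14 anti-GBM libraries, the 28 pairs of members had a median Pearson correlation of log2 CPM of 0.99, and 0.83 after group means were removed. Over the 16 Adriamycin libraries it was 0.85, and 0.89 after removal of group means, and over the 8 slices 0.36 and 0.51. The 14 mice share a disease contrast and the Adriamycin values lean on Ad5, so these are descriptions. In the slices H2-Ab1 and H2-DMa ran against each other, with a correlation of -0.48, while H2-Ab1 and H2-Eb1 had the highest, 0.92. The genes outside the members whose log2 CPM was most like the mean of the 8 were, in the anti-GBM experiment, Ms4a6b (correlation 0.99), Nckap1l (0.99), Fcgr1 (0.99), Ly86 (0.99) and Laptm5 (0.99), all over 14 libraries. In the Adriamycin experiment they were Psmb8 (0.98) and Tap1 (0.96), which serve class I presentation, the interferon-induced GTPase gene Iigp1 (0.96), H2-Ea-ps (0.95) and H2-DMb2 (0.94), over 16 libraries. Over the 8 slices they included Zfp410 (0.97), Mybpc2 (0.97), Pias2 (0.96) and Iglon5 (0.95), where so few libraries and little variation leave high correlations easy to reach.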

How the data were processed

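The authors aligned reads of a stranded mRNA kit to GRCm38 with STAR 2.7.9a, counted them with featureCounts 1.5.1 and deposited raw counts per gene without normalization or filtering. Strand and multi-mapping settings of the counting are not given in the sources used here. Columns were assigned to groups by the names the study's tables give the mice, and mouse NTS14 carries another number in its column name. Columns left unused numbered 0. Replicates differed by more than sampling noise (chi-square per degree of freedom 2.02 to 58.8 over 54 pairs).

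Counts were tested with edgeR 4.0.16 (quasi-likelihood, TMM, filterByExpr with a minimum count of 10) in R 4.3.3, in 1 fit per experiment with all its groups, with Benjamini-Hochberg adjustment per comparison and a threshold of 0.05. DESeq2 1.42.0 was an alternative. Tests were checked on simulated data. The mice are separate animals per the labels; the study calls the slice replicates biologically independent, without saying whether each came from its own mouse. The bound given for H2-Ea-ps covers counting error only. Values after ± are SDs across samples for levels. For log2 fold changes they are SEs of the edgeR fit, which include variation between replicates.

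Members and lists were chosen with earlier results of these data known. The 8 members are given in every comparison. Of the other lists, the text names H2-Ea-ps, H2-DMb2, H2-Oa, H2-Ob, H2-Eb2, Ifi30, Rfx5, the 3 called with the smallest p, Ifng, Irf1, Ptprc, markers at 0 and the 5 genes most like the members. Some genes are not reported here. Creb1, Ifngr1, Ifngr2 and Csf1r were named after their values were seen. Exon lengths are unions of Gencode vM21 exons.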

Additional observations from a re-analysis of the deposited data

Results flagged for a closer look

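Values far from the rest of their group of 4 were looked for in 126 sets, 64 of them of members, by Dixon's test. It marked 8 sets, 6 of them of members, where chance marks about 5% of sets. In healthy BALB/c mice with FGF23, Ctss was at 16.5 CPM in Ad9 against 11.8 to 12.5 in the others. In the same group Ad11 was low for H2-DMb1 (3.02 CPM against 4.71 to 4.86) and for H2-DMb2 (2.54 CPM against 3.77 to 3.88), 2 near-identical genes. In healthy BALB/c mice with vehicle, Ctss was at 14.1 CPM in Ad1 against 10.9 to 11.3. In the slices with FGF23, H2-Aa was at 175 CPM in slice 3 against 229 to 239.4. In the slices with vehicle, H2-Aa was at 157.6 CPM in slice 2 against 208.8 to 219, H2-DMb1 was at 5.75 CPM in slice 1 against 4.86 to 4.94, and Ifi30 was at 82.3 CPM in slice 3 against 93.1 to 94.8. Neither NTS8 nor Ad5 was marked for a member.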

How the results depend on the processing

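The number of members called changed in 4 of 11 comparisons. For FGF23 in anti-GBM mice, 0 became 1 (Ciita) without a count filter (60 of 30487 genes called), with DESeq2 (153 of 16294) and at a threshold of 0.1 (56 of 15859). It became 2 with adjustment over all comparisons combined (edgeR adjusted p = 0.00676 for Ciita and 0.0297 for H2-DMa). That adjustment called 298 of 15859 genes in this comparison, against 38 in the main fit. With each mouse left out in turn it was 0 to 1, the 1 being Ciita without NTS8. The interaction with anti-GBM went from 0 to 1 under combined adjustment (Ciita, edgeR adjusted p = 0.0349). There 200 of 15859 genes were called, against 5 in the main fit. Adriamycin against healthy with vehicle went from 0 to 1 with DESeq2 (H2-DMa), which called 155 of 15013 genes. Anti-GBM against healthy with vehicle was 7 to 8 with mice left out, 8 without NTS8; Ciita was also called there without a count filter (adjusted p = 0.0289), with at least 10 counts in every library (0.0477), with DESeq2 (0.0424) and at a threshold of 0.1. Why these settings differ was not tested. The other 7 comparisons kept their counts of members under RLE size factors, both filters, a robust fit, a fit of only the groups compared, DESeq2, combined adjustment, the other thresholds and each library left out. No called value changed sign, and uncalled values changed sign 49 times. Where 1 library of a group is left out, the others are assumed to vary as the remaining groups do.

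In a fit with a block for the replicate number of each slice, 0 members were called, with log2 fold changes from -0.28 for Ctss to 0.15 for H2-Aa. Same-numbered slices had correlations of 0.107, 0.105, -0.105 and 0.112 in their deviations from group means, and differently numbered ones -0.161 to 0.124. For vehicle slices 1, 2 and 4 the same-numbered FGF23 slice had the highest correlation, and for slice 3 it did not. These values leave the pairing undecided, and the main fit did not pair the slices. For the mice, which are separate animals, no paired analysis was made. Their columns do not carry the replicate numbers of the labels, so no block for these numbers could be fitted. After removal of group means, 3 of the 5 genes most like the members in the anti-GBM experiment stayed among the first 20.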
